A study of Homo sapiens with 17 samples.

Results

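The D-loop row and the rows of TRNP and TRNT, which lie side by side at the end of the human mitochondrial genome (ChrMT), were described in 17 J2 RIP-seq libraries. They were chosen by position and name rather than by their counts, but with earlier results of these data known. They are 3 of the 38 single features of the deposited annotation (13 coding sequences, 2 rRNAs, 22 tRNAs, and the D-loop). TRNP and TRNT have a tRNA row and a gene row each, so that the 3 features take up 5 of the 99 rows of the count table. J2 is an antibody that binds double-stranded RNA, and RIP-seq sequences the RNA that it pulls down. The captured RNA was polyadenylated in vitro and sequenced as long nanopore reads.

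The libraries came from H1437, H23, and PC9, established human lung adenocarcinoma cell lines, all labelled as non-small cell lung carcinoma. Experiment 1 held untreated replicates 1 to 3 of each line. Experiment 2 held 1 untreated library (replicate 4) and 1 library labelled IMT1 for each line. IMT-1 is an inhibitor of the polymerase that transcribes ChrMT, and its dose and time are not given in the sources used here. Experiment 3 held 1 H23 control (replicate 5) and 1 H23 library labelled ADAR1 KD, made with siRNA. The study describes the control of the knockdown as H23 given a nontargeting siRNA, which the label of replicate 5 does not name. ADAR1 is an enzyme that edits adenosine to inosine in double-stranded RNA. The labels do not name replicates 4 and 5 as controls, and they were assigned from the design text and the names of the alignments. The study describes the untreated replicates as independent experiments. The labels do not say whether they were separate cultures, and P values measure the spread between these libraries, which may be technical. The tables hold mitochondrial rows alone, and neither the identity of the lines nor the loss of ADAR1 RNA could be checked in them.

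The D-loop is the noncoding control region of ChrMT. It holds the promoters from which each strand is transcribed and the site where replication of the heavy strand begins. The light-strand promoter lies in the part of the D-loop at the start of the numbering. A transcript from it runs through the rest of the D-loop and then through TRNP, the gene of the proline tRNA, before it goes on to ND6 and the other genes of that strand. TRNT, the gene of the threonine tRNA, is encoded the other way, behind CYTB at the end of the long heavy-strand transcript. Where transcripts of both strands cover the same bases, they can pair into double-stranded RNA.

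In the deposited annotation, TRNT covers chrMT:15888-15953 on the plus strand (66 bases) and TRNP covers chrMT:15956-16023 on the minus strand (68 bases), with 2 bases between them. CYTB, at positions 14747 to 15887, ends directly before TRNT. The D-loop row starts at 16024, directly after TRNP, on the minus strand. It is written to end at 17145, which is 576 bases past the last position of the genome, 16569. The row thus counted reads over 546 bases, and the remaining D-loop bases, which open the numbering and hold the light-strand promoter, lie in none of the 3 rows. The positions are those of the reference mitochondrial genome used by the authors. A read was counted on a row with an overlap of at least 6 bases, and no strand setting is stated, so that reads from either strand over these bases cannot be told apart.

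Total reads ran from 37113 to 6295486 per library, and between 1.14% and 47.2% of them mapped to ChrMT. Levels are given as counts per 1000000 total reads (CPM), and shares as percent of the mapped reads. Replicate 1 of H23 was the shallowest untreated library, with 122304 reads. In the ADAR1 KD library, which was the shallowest of all, 3 counts correspond to 80.8 CPM.

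TRNP was the more heavily counted tRNA of the pair in each of the 17 libraries. Its tRNA row held 5.25 times the TRNT counts in H1437 replicate 3, where the rows were nearest, and 261.5 times in the PC9 library with IMT-1, where they were farthest (median 19.7). Both genes have nearly the same length, so that the ratio per base was close to that of the counts, from 5.10 to 254 (median 19.1). The ratio of TRNP to TRNT did not differ between the 3 lines beyond the spread of the 9 untreated libraries (two-sided exact permutation test of the log2 ratio, P = 0.925, adjusted P = 0.925 over 3 levels and 3 ratios).

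Scaled to CPM per 100 bases, TRNP ranked between 1 and 10 among the 38 rows (median 2) and was first in 4 libraries. The D-loop row ranked between 3 and 27 (median 13) and TRNT between 12 and 34 (median 26). Among the 22 tRNA rows, TRNP was first in 4 libraries and among the first 3 in 11 of 17. It took between 1.02% of all tRNA-row counts in PC9 replicate 4 and 62.8% in the H23 library with IMT-1. TRNT ranked between 10 and 22 among the tRNAs and took at most 2.14% of their counts, in the H1437 library with IMT-1. A long read needs only 6 bases on a row to be counted, and these levels per base therefore describe overlap with reads rather than the abundance of mature tRNA.

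TRNP and TRNT also differed in how the gene row compared with the tRNA row of the same interval. For TRNP both rows held the same count in 14 libraries, and the gene rows lacked 7 of 47843 counts over all 17. For TRNT the gene rows held 597 of 1557 counts. The share ranged from none to 89.4% (median 28.8%). H1437 replicate 1 had 0 gene-row counts for TRNT beside 51 tRNA-row counts, PC9 replicate 1 had 0 beside 4, and the ADAR1 KD library had 0 beside 2. H1437 replicate 3 was at the other end, with 135 of 151. CYTB, which abuts TRNT, kept 35.8% of its counts on the gene row over all libraries, and TRNE, a minus-strand tRNA gene before CYTB, kept 18.3%. Other neighbors kept most of their counts on the gene row, with 80.03% for ND6. On the other side of the D-loop, the tRNA gene TRNF kept 80.4% and the rRNA gene RNR1 kept 98.8%. The methods of the study let a read count on several gene features in the settings given for the bar graphs, and elsewhere describe counts without overlapping reads. Which of these held for each kind of row is not given in the sources used here, and its part in the difference was not tested. The tRNA rows are used from here on.

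**Figure D1:**
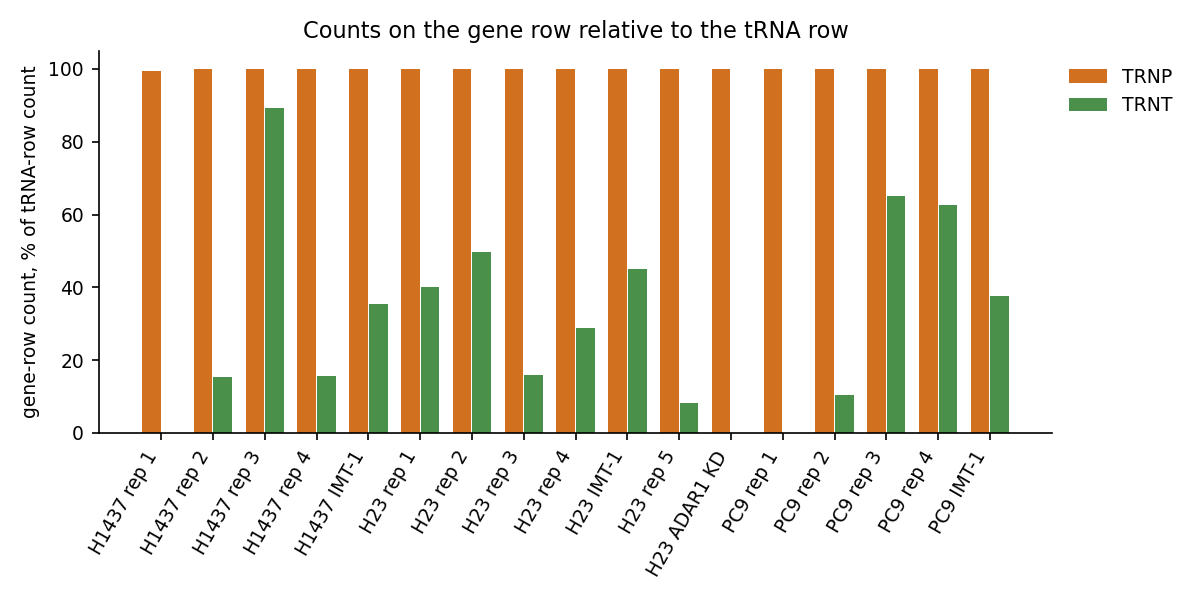
Count on the gene row as a percentage of the count on the tRNA row (y axis) in each library (x axis), for TRNP (orange) and TRNT (green), with no bar where the gene-row count is 0. TRNP stands at 99.6% or more in each library, while TRNT ranges from 0 to 89.4%.

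The D-loop row and TRNP were counted at nearly the same number of reads in most libraries. The D-loop count was between 0.5 and 2 times the TRNP count in 14 of 17 libraries, with a median ratio of 1.12. Since the D-loop row is 546 bases long, TRNP was the higher of the pair per base in each library, by 1.82 to 38.8 times (median 7.18). A read needs only 6 bases on either row, so that nearly equal counts alone give the shorter row the higher value per base. In untreated H23 the D-loop to TRNP ratio of counts was 0.894, 0.956, and 1.34 in replicates 1, 2, and 3, and in PC9 it was 1.47, 1.16, and 0.679. These 6 libraries lay close to equal counts. H1437 spread more widely, with 1.99, 0.953, and 0.207. The ratio did not differ between the lines beyond this spread (exact permutation test, P = 0.889, adjusted P = 0.925, n = 3 per line).

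The 3 libraries outside the 0.5 to 2 range were H1437 replicate 3 and both libraries of the ADAR1 experiment. In H1437 replicate 3, the D-loop row had 164 counts, TRNP 793, and TRNT 151, so that the D-loop and TRNT rows were almost level. The neighbors stood out in the same library, where CYTB held 20.2% and TRNE 24.1% of the mapped reads, against 0.615% and 0.0152% in replicate 1 and 5.73% and 6.64% in replicate 2. Its D-loop share was 0.365%, the lowest among the 3 replicates.

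**Figure D2:**
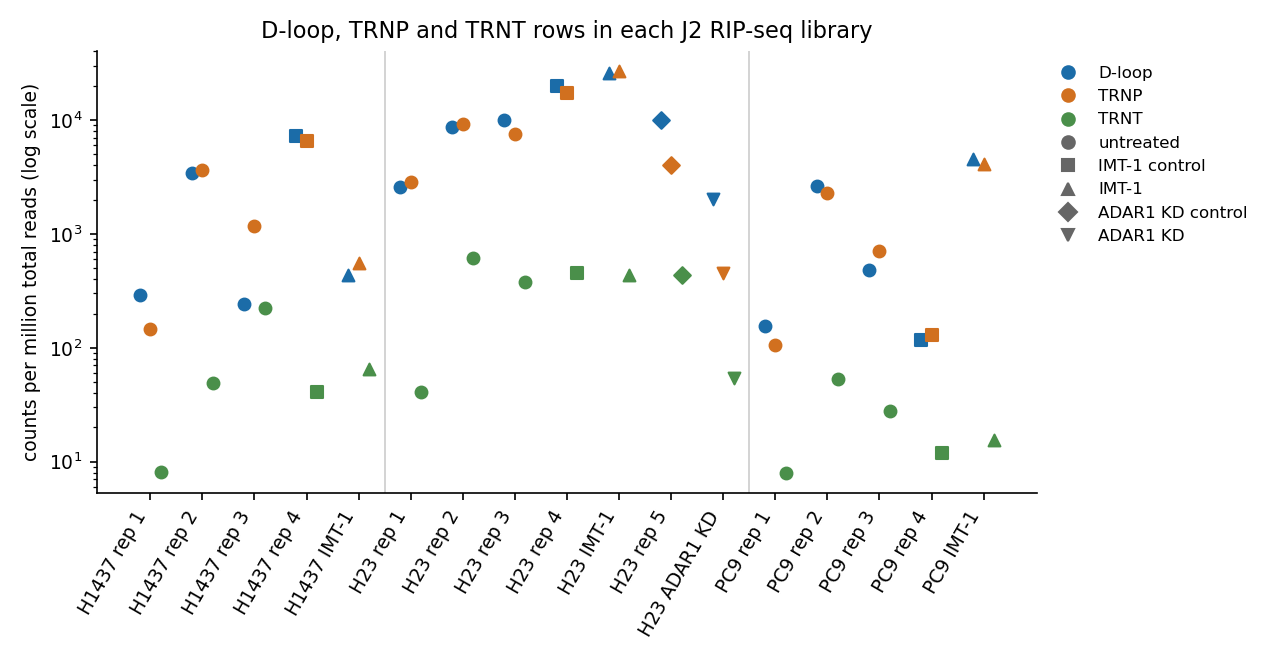
CPM (y axis, log scale) of the D-loop row (blue), TRNP (orange), and TRNT (green) in each of the 17 libraries (x axis), with 1 point per library and row and marker shapes for the treatment. D-loop and TRNP points lie close together except in H1437 replicate 3, H23 replicate 5, and ADAR1 KD, and TRNT lies below both in each library.

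In experiment 1, the D-loop level was 289, 3455, and 242 CPM in H1437 replicates 1, 2, and 3. The H23 libraries had 2559, 8749.5, and 10036 and the PC9 libraries 156, 2645, and 479.9. H23 replicate 1 lay below the highest H1437 and PC9 libraries, so that the lines overlapped. Mean CPM ± SD was 7115 ± 3997 for H23, 1329 ± 1841 for H1437, and 1093 ± 1353 for PC9 with n = 3 each, and the exact permutation test across the lines gave P = 0.1 (adjusted P = 0.257).

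TRNP had 146, 3625, and 1170.01 CPM in H1437 replicates 1, 2, and 3. In H23 it had 2862, 9152, and 7477, and in PC9 106, 2281, and 707. The lowest H23 library was above each PC9 library but below H1437 replicate 2. Mean CPM ± SD was 6497 ± 3258 for H23, 1647 ± 1788 for H1437, and 1031 ± 1123 for PC9 with n = 3 each (P = 0.0607 by exact permutation across the lines, adjusted P = 0.257). H23 was 6.30 times PC9 with no overlap (exact permutation test, P = 0.1, the smallest that 3 against 3 allow) and 3.94 times H1437 with overlap (exact permutation test, P = 0.2). The separation of H23 from PC9 also held for at least 31.6% of the 38 rows. In these, each H23 library lay above each library of both other lines. The full share of rows without overlap between H23 and PC9 was not counted. Between H1437 and PC9 the unpaired exact permutation test gave P = 0.6. Same-numbered libraries of these lines deviated together, but those of H23 and either line did not. TRNP was higher in H1437 than in PC9 in 3 of 3 same-numbered pairs, by a mean of 0.62 on the log2 scale (P = 0.25 by exact sign flips, a test added after seeing the data that can give no lower P with 3 pairs). The D-loop and TRNT were higher in H1437 in 2 of 3 pairs each (P = 1 and 0.75 by exact sign flips).

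TRNT was lower than both in each library, at 8.10, 49.3, and 223 CPM in H1437. It stood at 40.9, 612, and 379.7 in H23 and at 7.98, 53.0, and 27.7 in PC9. The low values rest on few reads, with 4 counts in PC9 replicate 1 and 5 in H23 replicate 1. The highest H1437 library lay above the lowest H23 library. Mean CPM ± SD was 344 ± 287 for H23, 93.4 ± 114 for H1437, and 29.5 ± 22.6 for PC9 with n = 3 each (P = 0.129 by exact permutation across the lines, adjusted P = 0.257).

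H23 had the highest mean of all 3 features, and none of the differences passed the adjustment. None of the 3 was among the rows in which each H23 library lay above each library of the other lines, which held 31.6% of the 38 rows. The outcome of the unadjusted tests depended on the libraries used. Without H23 replicate 1 the exact permutation P was 0.0286 for the D-loop, 0.0214 for TRNP, and 0.0214 for TRNT. With replicate 4 of each line added, the exact permutation P was 0.0173, 0.0145, and 0.0225 in the same order. That library was high for the D-loop in H23 (19938 CPM) and H1437 (7239) and low in PC9 (117). As shares of the mapped reads, the means of the D-loop row and TRNP were 3.86% ± 1.43 and 3.68% ± 1.49 in H23 and 2.86% ± 3.82 and 3.28% ± 3.80 in H1437 (SD, n = 3 each). They were 2.07% ± 1.38 and 2.11% ± 1.36 in PC9 (SD, n = 3). On this scale the lines did not differ beyond their spread (exact permutation tests, P = 0.682 for the D-loop, 0.789 for TRNP, and 0.579 for TRNT). H23 libraries had 11.0% to 24.4% of their reads on ChrMT, against 1.89% to 7.45% in the other lines, and the part of this in the levels CPM was not tested.

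Normalized within ChrMT counts instead, the edgeR quasi-likelihood test with TMM and Benjamini-Hochberg adjustment called 0 of 38 rows (0%) between H23 and H1437, 0% between H23 and PC9, and 0% between H1437 and PC9. At an unadjusted P under 0.05 it found 0, 0, and 1 row. DESeq2 called 0 rows in each contrast and found 5, 3, and 1 at an unadjusted P under 0.05. For TRNP the edgeR log2 fold change was 0.13 ± 0.70 (SE) between H23 and H1437 and 0.79 ± 0.71 between H23 and PC9 (edgeR adjusted P = 0.878 and 0.68). For the D-loop row it was 0.40 ± 0.82 and 0.77 ± 0.82 (edgeR adjusted P = 0.754 and 0.68), and for TRNT -0.46 ± 1.02 and 1.00 ± 1.07 (edgeR adjusted P = 0.754 and 0.68). The size of the H23 differences, and for TRNT against H1437 also the direction, depended on the library size used. With total reads as the library size the same edgeR test gave 2.42 and 2.70 for the D-loop and 1.98 and 2.66 for TRNP on the log2 scale. For TRNT it gave 1.89 and 3.54 (edgeR adjusted P = 0.332 and 0.167), and it called none of the 3 features.

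Across the 9 untreated libraries, the D-loop and TRNP levels went together, with Pearson r = 0.92 on log2(CPM + 1) (exact permutation P = 0.000339, adjusted P = 0.00102 over 3 pairs). Spearman rho was 0.92 (exact permutation P = 0.00131, adjusted P = 0.00394). Without the 2 libraries farthest from the D-loop median, PC9 replicate 1 and H1437 replicate 3, r was 0.97 (exact permutation P = 0.000794). Taken as deviations from the mean of each line, r was 0.85 (exact permutation within lines, P = 0.0556, adjusted P = 0.0833). The values share the total reads of a library as denominator, and a long read may be counted on both rows, as they adjoin. The part of either in the correlation was not tested.

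For TRNT the correlations were lower in value, and their difference from that of the D-loop and TRNP was not tested. With TRNP, r was 0.85 and rho 0.85 (exact permutation P = 0.00485 and 0.00607, adjusted P = 0.00728 and 0.00911). This relation was weaker without the 2 libraries farthest from the TRNP median, PC9 replicate 1 and H1437 replicate 1. Over the 7 libraries left, which span a narrower range, r was 0.65 (exact permutation P = 0.126). With the D-loop row, r was 0.68 and rho 0.72 (exact permutation P = 0.0534 and 0.0369, adjusted P = 0.0534 and 0.0369). Without PC9 replicate 1 and H1437 replicate 3, r was 0.91 (exact permutation P = 0.0137). Within lines, r was 0.74 for TRNP and TRNT and 0.44 for D-loop and TRNT (exact permutation within lines, adjusted P = 0.0833 and 0.287). As log2 shares of the mapped reads, r was 0.77 for D-loop and TRNP (exact permutation P = 0.0154), 0.58 for TRNP and TRNT, and 0.13 for D-loop and TRNT (exact permutation P = 0.741). In the same 9 libraries the median r of log2(CPM + 1) with the 35 other rows was 0.77 for the D-loop, 0.84 for TRNP, and 0.75 for TRNT. The r of TRNP and TRNT was thus at the median of TRNP, that of D-loop and TRNT lay below both medians, and that of D-loop and TRNP lay above both. It was not the highest for either row. In these 9 libraries the D-loop row had a higher r with COX1 (0.97) and COX2 (0.95). TRNP had a higher r with TRNY (0.94) and nearly the same r with TRNA (0.92).

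**Figure D3:**
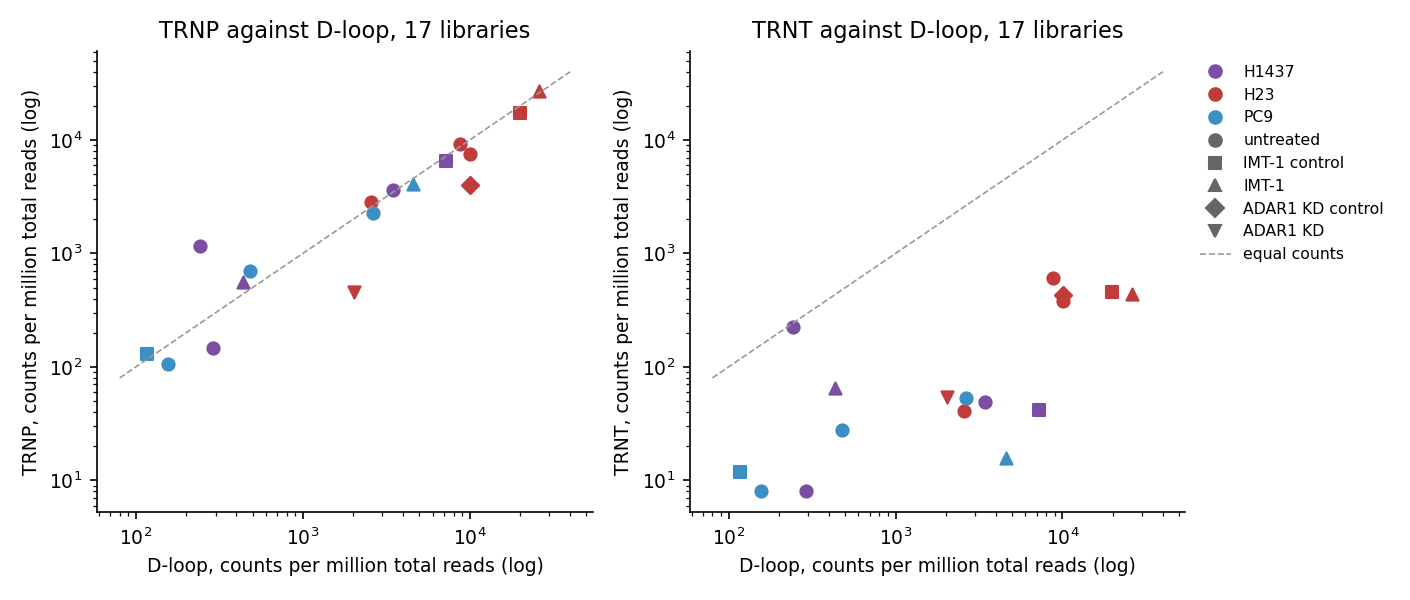
TRNP (left) and TRNT (right) against the D-loop row in the 17 libraries, both axes in CPM on log scales, with color for the cell line, marker shape for the treatment, and a dashed line at equal counts. TRNP follows the line in 14 of 17 libraries within a factor of 2, and TRNT lies below it in each library, nearest in H1437 replicate 3.

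Over all 17 libraries, treated ones included, the rows other than these 3 that were most like the D-loop row were TRNY (r = 0.94), COX1 (r = 0.93), and COX2 (r = 0.89). TRNP came between TRNY and COX1 at r = 0.93, and TRNT at 0.70 was near the median of 0.66 over the other 35 rows. TRNY is the minus-strand tyrosine tRNA gene that lies directly before COX1, and COX1 and COX2 encode subunits of cytochrome c oxidase. The rows most like TRNP and TRNT were named after their values were seen. They were TRNY (r = 0.92) and TRNA (r = 0.86), both minus-strand tRNA genes, and COX1 (r = 0.82) for TRNP. For TRNT they were CYTB (r = 0.89), its neighbor on the plus strand, followed by TRNK (r = 0.86) and ND4 (r = 0.84). All points share the total reads of their library, and these correlations are a description.

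With IMT-1, the D-loop row and TRNP differed from the control in the same direction within each line, lower in H1437 and higher in H23 and PC9. In H1437 the D-loop level was 7239 CPM in the control and 437 with IMT-1, and in H23 it was 19938 and 26025. In PC9 it was 117 and 4573. The level was thus 16.6 times lower in H1437, 1.31 times higher in H23, and 39.1 times higher in PC9. TRNP was at 6476 and 555 in H1437, at 17311 and 27004 in H23, and at 129 and 4090.45 in PC9, which is 11.7 times lower, 1.56 times higher, and 31.8 times higher. The ratio of D-loop to TRNP stayed between 0.787 and 1.15 in all 6 libraries of this experiment.

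TRNT differed far less from its controls. It was at 41.3 and 65.4 CPM in H1437, 453 and 439 in H23, and 11.8 and 15.6 in PC9, without and with IMT-1. In PC9 both values rest on 8 counts. The TRNP to TRNT ratio of counts was therefore 157 without and 8.48 with IMT-1 in H1437, but 10.9 without and 261.5 with IMT-1 in PC9.

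Averaged over the 3 lines, the log2 ratios were 0.54 ± 4.67 for the D-loop, 0.69 ± 4.27 for TRNP, and 0.34 ± 0.36 for TRNT (SD, n = 3; exact sign-flip permutation test, P = 0.75, 0.75, and 0.5). The smallest P that 3 pairs allow is 0.25. Without PC9 the mean was -1.83 for the D-loop and -1.45 for TRNP, so that its direction rested on that line. The edgeR test with the line as a block called 0 of 38 rows (0%) with IMT-1, and 1 row at an unadjusted P under 0.05. DESeq2 called 3 rows, which were ATP8, RNR1, and TRNS2 and none of these 3 features, and found 8 at an unadjusted P under 0.05. The edgeR log2 fold changes were 1.55 ± 1.39 for the D-loop, 1.71 ± 1.35 for TRNP, and 1.21 ± 0.89 for TRNT (SE; edgeR adjusted P = 0.807, 0.798, and 0.798).

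In H1437, 89.5% of the 38 rows were lower with IMT-1 in CPM, the D-loop and TRNP among them. TRNT was 1 of the 4 rows that were not, beside TRNN, TRNH, and TRNL2, which were named after their values were seen. In H23 only 15.8% of the rows were higher with IMT-1, and the D-loop and TRNP were 2 of these 6 rows, beside ATP8, TRNC, TRND, and TRNE. In PC9 the share was 52.6%, with all 3 features in it. Ordered from the largest log2 ratio, the D-loop row was at place 36 of 38 in H1437, 4 in H23, and 1 in PC9, and TRNP was at 35, 2, and 3. TRNT was at place 1, 7, and 18.

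**Figure D4:**
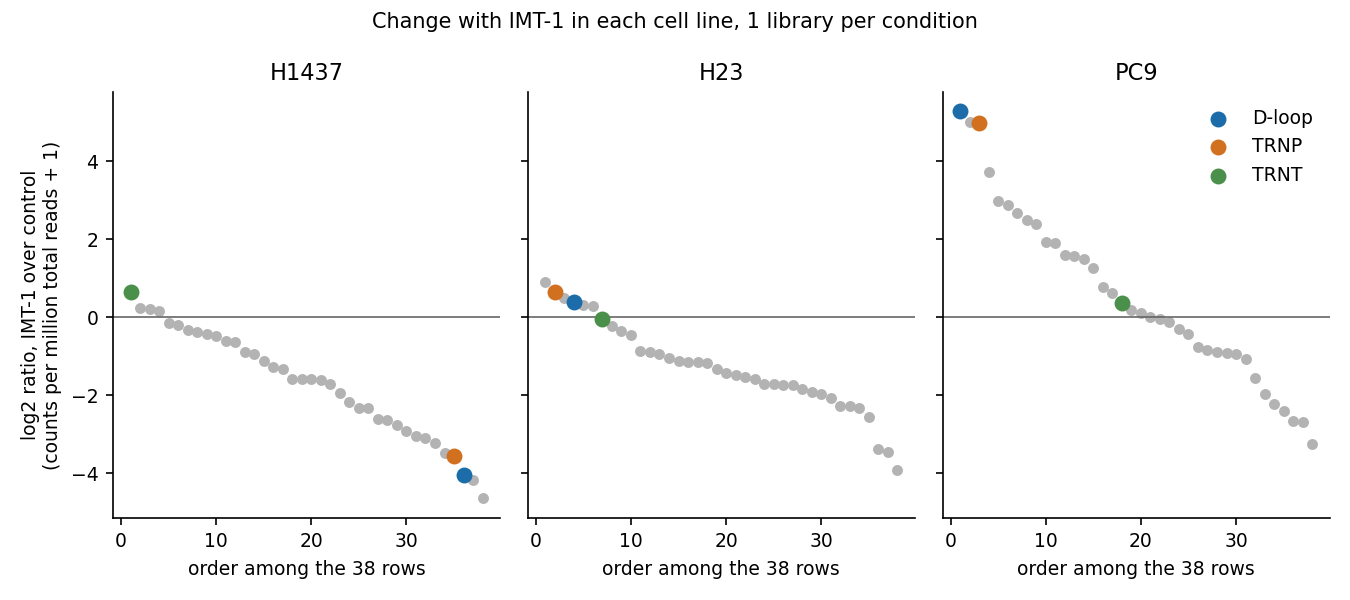
Log2 ratio of IMT-1 over control (y axis, CPM + 1) for the 38 rows in order of size (x axis) in H1437, H23, and PC9, with D-loop (blue), TRNP (orange), and TRNT (green) among the other rows (gray) and 1 library per condition. D-loop and TRNP stand near the low end in H1437 (places 36 and 35) and near the high end in H23 (4 and 2) and PC9 (1 and 3).

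The IMT-1 libraries were also set against all untreated or control libraries of their line, since 1 control gives no spread. In H23 the IMT-1 values of the D-loop and TRNP lay above those of all 5 such libraries, which ran up to 19938 and 17311 CPM. In PC9 they lay above all 4, which ran up to 2645 and 2281. In each of these lines 10.5% of the 38 rows did so, the other rows being ATP8 and TRNC in H23 and TRNA and TRNY in PC9. In H1437 the D-loop and TRNP levels of the IMT-1 library fell inside the spread of the 4 untreated libraries, which ran from 242 to 7239 and from 146 to 6476. The H1437 control was the highest of these 4 for both rows, and the PC9 control was the lowest of its line for the D-loop. TRNT lay within the untreated range in all 3 lines.

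As a share of the mapped reads, the D-loop row held 13.7% (95% Wilson interval 13.2 to 14.1) of the H1437 control and 3.82% (3.34 to 4.36) with IMT-1. In H23 it held 6.53% (6.41 to 6.65) and 26.5% (26.1 to 26.8), and in PC9 0.174% (0.140 to 0.217) and 11.6% (11.2 to 12.1). TRNP held 12.2% and 4.85% in H1437, 5.67% and 27.5% in H23, and, in PC9, 0.191% and 10.4%. By count, TRNP was at place 1 and the D-loop row at place 2 of the 38 rows in the treated H23 library, and they were at places 4 and 3 in the treated PC9 library. The TRNT share was higher with IMT-1 in all 3 lines, at 0.572% against 0.0779% (H1437), 0.447% against 0.148% (H23), and 0.0397% against 0.0176% (PC9) (mean log2 ratio 1.88, P = 0.25 by exact sign-flip permutation, the lowest value possible). In PC9 both TRNT shares rest on 8 counts, and their 95% Wilson intervals overlapped (0.0201 to 0.0783 with IMT-1, 0.00892 to 0.0347 without). By share, 24, 23, and 26 of the 38 rows were higher with IMT-1 in H1437, H23, and PC9. The share of reads on ChrMT was lower with IMT-1 in each line, at 1.14% against 5.30% in H1437, 9.83% against 30.5% in H23, and 3.94% against 6.73% in PC9. In H23, 26.3% of the rows lay above all 5 untreated or control libraries by share, all 3 features among them. In PC9 the D-loop and TRNP were in the 21.1% of rows that did so, and in H1437 TRNT was in the 42.1%.

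The neighbors by position had other patterns. CYTB, the coding gene before TRNT, had 1220 CPM in the H1437 control and 637 with IMT-1, 7733 and 3564 in H23, and 195 and 301 in PC9. ND6, the coding gene of the light-strand transcript, had 457 and 329 in H1437, 1236 and 668 in H23, and 16.3 and 125 in PC9. TRNE had 926 and 593, 2973 and 3630.06, and 394 and 231 in the same order. On the other side of the D-loop, TRNF, the phenylalanine tRNA gene, had 133 and 16.9, 266 and 23.3, and 34.1 and 106. RNR1, the gene of the small rRNA, was lower with IMT-1 in all 3 lines, at 1858 against 11555, 6929 against 34536, and 13261 against 27626 (exact sign-flip permutation test, P = 0.25). None of these 5 neighbors had a higher CPM with IMT-1 in both H23 and PC9, as the D-loop and TRNP had. ATP8, which is not among the neighbors, was also higher in both lines, though on 0 and 1 counts in PC9. By share of the mapped reads, however, CYTB was 1.43 and 2.63 times and ND6 1.68 and 13.1 times the control in H23 and PC9, beside 4.06 and 66.8 times for the D-loop and 4.85 and 54.2 times for TRNP. TRNY, COX1, and COX2, the rows most like the D-loop row, were also lower in H1437 and higher in PC9. Their log2 ratios of CPM + 1 were -4.64, -3.09, and -2.33 in H1437 and 5.02, 2.39, and 1.89 in PC9. In H23 these rows were lower with IMT-1, at -1.15, -1.54, and -1.32.

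TRNP is 1 of 9 genes on the minus strand of the annotation, with ND6 and 7 other tRNA genes (TRNQ, TRNA, TRNN, TRNC, TRNY, TRNS1, TRNE). Of the 8 genes other than TRNP, 1 had a higher CPM with IMT-1 in H1437, as did 2 in H23 and 6 in PC9. The median log2 ratios of these 8 were -1.19, -0.91, and 0.84, beside -1.59, -1.37, and 0.15 over all 38 rows. By share of the mapped reads, 7, 8, and 8 of the 8 were higher, as were 24, 23, and 26 of the 38. The count in PC9 includes TRNE, which was nearly unchanged at 0.5857% with IMT-1 against 0.5854%. None passed the edgeR test.

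With ADAR1 knockdown in H23, all 38 rows (100%) were lower in CPM. The D-loop row was at 10020.1 CPM in the control and 2021 in the knockdown, TRNP at 4015 and 458, and TRNT at 434 and 53.9. The knockdown values were 0.202 (95% exact interval 0.158 to 0.254), 0.114 (0.0662 to 0.184), and 0.124 (0.0148 to 0.461) times the control. There is 1 library per condition and no test, and these intervals cover counting error only. The counts behind the knockdown values were 75, 17, and 2, and 11.0% of the knockdown reads were on ChrMT against 47.2% of the control reads.

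Within the mapped reads the changes were smaller. The D-loop row held 2.12% (95% Wilson interval 2.04 to 2.21) of the control and 1.83% (1.46 to 2.29) of the knockdown reads, and the intervals overlapped. TRNP held 0.850% (0.796 to 0.908) and 0.415% (0.259 to 0.663), and these intervals did not overlap. This was not particular to TRNP. Of the neighbors by position, CYTB (lower with the knockdown) and TRNF and RNR1 (both higher) had no overlap either, while ND6 and TRNE overlapped. How many of the 38 rows had no overlap was not counted. TRNT held 0.0919% (0.0753 to 0.112) and 0.0488% (0.0134 to 0.178), a difference not detectable at this depth. By this share 65.8% of the 38 rows were lower with the knockdown, all 3 features among them.

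Both libraries of the ADAR1 experiment had more D-loop than TRNP counts, at 2.50 times (95% exact interval 2.31 to 2.70) in the control and 4.41 times (2.58 to 7.97) in the knockdown. The 4 untreated H23 libraries lay between 0.894 and 1.34. Both libraries of this experiment thus lay above the range of the other libraries of the line, and their own intervals overlapped. The study describes siRNA treatment for both conditions, and its part in this was not tested. The TRNP share of the control, 0.850%, was the lowest of the 5 untreated or control H23 libraries, as was its D-loop share. TRNP and TRNT were at 9.25 to 1 in the control and 8.5 to 1 in the knockdown.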

How the data were processed

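The authors base-called nanopore reads with Dorado, mapped them with minimap2 2.17-r941 to the mitochondrial genome alone, and counted mapped, unmapped, and total reads with SAMtools 1.10. Nuclear copies of mitochondrial sequence could thus not be separated. The authors deposited raw counts per annotation row from featureCounts (long-read mode, overlap of at least 6 bases, no multi-mapping reads, with reads on several features allowed in one description and left out in another) without normalization. The deposited percent of mapped reads was not used, and it was recomputed from the counts. Start and end positions were taken from the deposited annotation.

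From the deposited counts, counts per 1000000 total reads and percent of mapped reads were computed per library in Python 3.11.15. Ratios of rows used log2((count + 0.5)/(count + 0.5)) in tests. Exact tests were two-sided permutations of the F statistic or of signs. Rows that reached 10 counts in 3 or more libraries were tested with edgeR 4.0.16 (R 4.3.3), with DESeq2 1.42.0 as an alternative. The scripts were tested on simulated data, in which edgeR found most changed rows at a spread smaller than that of these libraries and almost none at their own spread. Wilson and exact 95% intervals (scipy 1.17.1) cover counting error alone and treat each read as independent. The study describes mitochondrial counts made without duplicate reads. Whether PCR copies of a molecule remain in the deposited counts could not be told. Depth ranged from 37113 to 6295486 reads.

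Groups followed the sample labels and design text. The features, their neighbors, and the list of minus-strand genes were chosen with earlier results of these data known. The rows named were the 3 features, CYTB, ND6, TRNE, TRNF, and RNR1, the minus-strand list, and the 3 rows most correlated with the D-loop. No 2 replicates agreed within sampling noise (chi-square test). Same-numbered libraries deviated together between H1437 and PC9 (r from 0.61 to 0.89) but not between H23 and either line (r from -0.70 to 0.04). Alternatives covered the scale, libraries, control, pseudocount, row type, normalization, filter, replicate block, and each replicate. Strand and base composition were not analyzed here, and no sequence was printed.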

Additional observations from a re-analysis of the deposited data

Results flagged for a closer look

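The change with IMT-1 had opposite signs in different lines, and this difference was not tested, as there was 1 library per line and treatment. For the D-loop row the log2 ratio of IMT-1 to control was -4.05 in H1437, 0.38 in H23, and 5.29 in PC9. For TRNP it was -3.55, 0.64, and 4.99, and for TRNT 0.66, -0.047, and 0.40. The H1437 controls of the D-loop and TRNP were the highest of the 4 untreated libraries of that line (7239 and 6476 CPM), and the PC9 control of the D-loop was the lowest of its line (117). Their part in the result was not tested.

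The D-loop level of PC9 replicate 2, at 2645 CPM, stood apart from the other 3 untreated libraries of PC9 (the gap to the nearest was 0.856 of the range of the 4). It was 1 of 27 groups of levels, shares, and ratios examined in this way, and chance alone marks about 1 in 20.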

How the results depend on the processing

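The exact permutation P across lines passed 0.05 for the D-loop, TRNP, and TRNT with each untreated or control library of the 3 experiments (0.0139, 0.0284, and 0.00972), or those of experiments 1 and 2 (0.0173, 0.0145, and 0.0225). With each replicate left out in turn, P ran from 0.0286 to 0.171, 0.0214 to 0.136, and 0.0214 to 0.346, and only leaving out H23 replicate 1 gave a P under 0.05. The 3 ratios stayed above 0.05 under all 13 alternatives each. The mean log2 ratio with IMT-1 turned to -1.83 (D-loop) and -1.45 (TRNP) without PC9, ran from -1.83 to 2.84 and -1.45 to 2.82 over the lines left out (0.18 to 0.53 for TRNT), and turned to -0.25 for TRNT against the mean of all untreated libraries. The knockdown ratios became 0.862, 0.488, and 0.531 by share of mapped reads, an alternative chosen after seeing the data. On gene rows 4 of 36 rows were called between H23 and PC9 (ND1, ND2, ATP6, and ND4L, named after their values were seen), and DESeq2 called 3 rows with IMT-1. Leaving out replicates left 0 calls throughout. With a replicate block edgeR called 0 rows in each line contrast, and the block changed no call. Over 18 comparisons of a library with another line, 6 were most alike at their own number, as many as chance alone gives with 3 libraries per line. Within-line deviations weakened r of D-loop and TRNP to 0.85, and percent of mapped reads and leaving out 2 libraries weakened r of TRNP and TRNT to 0.58 and 0.65. For D-loop and TRNT, r passed the 0.05 threshold with experiments 1 and 2 (0.72) and without 2 libraries (0.91), and was 0.13 by share and 0.49 on gene rows (exact permutation P = 0.741 and 0.181). Beyond these, the causes were not tested. No edgeR or DESeq2 fold change of the 3 features passed the threshold in 141 values under alternatives, and 8 turned their sign. For H23 against H1437, TRNT turned to 1.89 with total reads and TRNP to -0.11 by DESeq2. With replicates left out in turn, TRNT ran from -0.84 to 1.12 (above 0 without H1437 replicate 3 or H23 replicate 1), TRNP from -0.22 to 1.103 (below 0 without H1437 replicate 1), and the D-loop from -0.088 to 1.87 (below 0 without H1437 replicate 3). For H1437 against PC9, the D-loop ran from -0.55 to 0.86 (below 0 without H1437 replicate 2) and TRNT from -0.11 to 2.07 (below 0 without H1437 replicate 3). Counts of 2 to 8 on TRNT limit its values in 5 libraries.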
